A study of Mus musculus with 14 samples.

Results

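Genomic imprinting is the expression of a gene mainly from the allele inherited from 1 parent, set by DNA methylation that is laid down in the egg or the sperm and kept through development. Imprinted genes lie in clusters, in which a methylated control region or a long noncoding RNA silences neighbouring genes on 1 parental chromosome. Many of them act on fetal growth, on the placenta or on neurons, with paternally expressed genes that promote growth and maternally expressed genes that restrain it as the textbook contrast. Dio3, the gene of the type 3 deiodinase that inactivates thyroid hormone, is itself an imprinted gene of the cluster that also holds Dlk1 and Meg3. The results below are those of 40 imprinted genes other than Dio3, chosen by name from the 41934 genes listed for each age, with the entry of highest level used where a name was shared. By textbook knowledge 22 of them were classed as expressed from the paternal allele and 14 from the maternal allele. A further 4 (Grb10, Blcap, Gnas and Inpp5f) were set apart, as their active allele depends on the tissue or the transcript. The classes are simplified, because the active allele of some other genes, Ube3a among them, also depends on the cell type. The 40 genes fall into 19 domains. No value in these data separates the alleles, so each level is the sum over both parental copies.

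RNA of whole brains of individual male fetuses was sequenced at the embryonic ages E13.5 and E18.5, counted in days after mating. There were 4 Dio3+/+ and 2 Dio3-/- fetuses at E13.5, and 3 Dio3+/+ and 5 Dio3-/- fetuses at E18.5, all littermates from matings of Dio3+/- mice on a C57Bl/6J background into which the mutation had been crossed from 129/SVJ. In Dio3-/- fetuses 3 base changes in both copies of Dio3 inactivate the enzyme and leave its mRNA in place, and both sequencing batches were joined by an adjustment of the counts. Each age has 1 table, holding the authors' mean normalized count of that age, the log2 fold change of Dio3-/- against Dio3+/+ and its standard error. No value of a single fetus was analysed here, so that levels per fetus, the overlap of the genotypes and the depth of each library are unknown, and only the standard error tells of the spread between fetuses.

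Several facts about the whole libraries stand beside the results, those at E13.5 above all. Of 16 markers of the telencephalon, 16 were lower in Dio3-/- brains at that age, 15 of them with an adjusted p under 0.05, and the median log2 fold change was -1.56. Of 11 Hox and related markers of hindbrain and spinal cord, 11 were higher, with a median of 2.24 and 6 calls. The 7 cartilage markers with a mean count of at least 10 were all called higher (median 1.96), while Comp, Matn3, Snorc and Ucma lay under that level. The medians of the same lists at E18.5 were -0.03, 0.12 and -0.08. None of their genes was called at that age by the Wald test described with the genes, and 4 had an unadjusted p under 0.05. Xist, which marks the inactive X chromosome of females, was higher by 3.93 on the log2 scale (standard error 1.11, adjusted p = 0.0169) at E13.5 in libraries labelled male, and of the Y-linked genes Ddx3y, Uty, Kdm5d and Eif2s3y only Kdm5d was called there (-0.41, standard error 0.07). In the E18.5 libraries, also labelled male, the mean count of Xist was 2567.8, and it stood at 1.43 on the log2 scale (standard error 0.99, adjusted p = 0.837). Ddx3y, Uty and Eif2s3y had -0.12, -0.15 and -0.004 at E13.5, with standard errors from 0.07 to 0.08 or 0.09. At E18.5 all of these Y-linked genes lay between -0.11 and 0.01, each with a standard error of 0.06, and none was called. The sex of each fetus was taken from the labels and was not tested, as no values per library were analysed. The part of these differences in the results on imprinted genes was not tested. In bulk tissue, fewer cells of a type and less RNA per cell cannot be told apart. For Dio3 mRNA the log2 fold change was -0.89 at E13.5 and 1.10 at E18.5, and as the mutation leaves the mRNA in place, its level does not check the genotype. By qPCR in a larger set of fetuses that included females, the study reported Dio3 mRNA as increased at E13.5, opposite in sign to the value here. It also reported Dio3 mRNA as strongly increased at E18.5 by qPCR, the same sign as here.

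The promoters of 3 genes that the genotype comparison called are shown with their CpG, the dinucleotide at which imprints are written. They are windows of 300 bases from the RefSeq annotation of GRCm38.p6, from 250 bases before to 50 bases after a transcription start, printed 5′ to 3′ with each CpG in capitals. Windows were held for 31 of the 40 genes, and H19 and Cdkn1c were not among them. Where a gene had several windows, the one with most CpG is shown. That of Mest is chr6:30737800-30738099 on the plus strand, with 17 CpG. That of Nnat is chr2:157559828-157560127 on the plus strand, also with 17 CpG. That of Asb4 is chr6:5390160-5390459 on the plus strand, with 8 CpG.
Mest: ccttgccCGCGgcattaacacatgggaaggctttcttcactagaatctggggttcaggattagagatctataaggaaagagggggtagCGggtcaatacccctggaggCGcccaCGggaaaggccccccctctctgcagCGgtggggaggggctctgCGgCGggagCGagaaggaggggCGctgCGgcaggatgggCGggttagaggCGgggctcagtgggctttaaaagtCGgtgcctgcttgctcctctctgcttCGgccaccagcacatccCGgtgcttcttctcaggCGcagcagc
Nnat: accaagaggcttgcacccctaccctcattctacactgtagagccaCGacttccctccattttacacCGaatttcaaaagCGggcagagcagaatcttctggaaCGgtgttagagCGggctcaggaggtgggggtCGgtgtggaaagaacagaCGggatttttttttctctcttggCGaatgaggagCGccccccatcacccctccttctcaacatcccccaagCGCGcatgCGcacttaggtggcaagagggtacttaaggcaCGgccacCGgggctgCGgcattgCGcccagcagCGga
Asb4: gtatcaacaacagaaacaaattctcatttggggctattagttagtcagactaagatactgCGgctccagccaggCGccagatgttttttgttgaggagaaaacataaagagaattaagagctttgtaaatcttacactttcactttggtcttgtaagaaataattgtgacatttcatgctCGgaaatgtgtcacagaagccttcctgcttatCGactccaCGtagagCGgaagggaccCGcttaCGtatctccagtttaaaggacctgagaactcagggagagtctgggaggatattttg
Mest and Nnat are paternally expressed, and the maternal copy of their promoters is known to be methylated. Asb4 is a maternally expressed gene of the Peg10 domain. The median over the 31 genes, each taken at its richest window, was 17 CpG, and over all 27025 genes with a window it was 8. The letters AGGTCA, the half-site bound by thyroid hormone receptors and other nuclear receptors, were looked for on both strands. They occurred in a window of 4 of the 31 genes (12.9%; Igf2, Meg3, Igf2r and Airn) and of 18.1% of all genes, and in none of the 3 windows printed.

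The imprinted genes were among the more abundant transcripts of the fetal brain. Levels between genes were compared as mean normalized counts per kb of annotated exon, and ranked within each age among all genes with a mean count of at least 10. Of the 40 genes, 38 had such a level at both ages. Rtl1, a retrotransposon-derived gene antisense to maternally expressed microRNAs, was listed at 0 at both ages. Phlda2, a growth restraint of the placenta, had mean counts of 4.36 at E13.5 and 2.51 at E18.5, below the level at which genes were tested. The median percentile of the other genes was 79.4 at E13.5 and 78.7 at E18.5, and 10 of them at E13.5 and 7 at E18.5 lay in the top 5% of genes. Nnat, neuronatin, a small membrane protein of the endoplasmic reticulum of developing neurons, had the highest level of all of them at both ages (percentiles 99.95 and 99.94, mean counts 54047.7 and 42011.3). The next genes at E13.5 were H19, Ndn, Cdkn1c and Peg10, and at E18.5 Ndn, Snrpn, Peg13 and H19. Among the lowest at both ages were Airn (percentile 24.9 at E18.5), Commd1, Kcnq1ot1 and Nespas. Kcnq1ot1 ranked low per kb over 93092 annotated exon bases, while its mean counts were 4556.8 at E13.5 and 3371.7 at E18.5.

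The order of the levels differed between the ages, which is given as a description because the ages were normalized apart. Each level also pools the genotypes in unlike shares, 4 Dio3+/+ and 2 Dio3-/- fetuses at E13.5 and 3 and 5 at E18.5. Gaps between the ages therefore mix age with genotype. The percentile was lower at E18.5 in 24 of the 38 genes. It was lower by more than 10 points in 4 genes, of which Dlk1, a membrane protein related to Notch ligands, had the widest gap, from 59.1 to 27.2. The others were Nespas (38.3 to 22.6), Magel2 (82.8 to 69.4) and Grb10 (97.8 to 87.2), an adaptor that inhibits insulin and insulin-like growth factor receptors. It was higher by more than 10 points in 3 genes, Zim1 (47.6 to 71.2), Zrsr1 (50.5 to 64.3) and Impact (69.2 to 79.7). Mest, a paternally expressed protein of the endoplasmic reticulum, lay at percentile 98.2 at E13.5 and 92.4 at E18.5, and Cdkn1c, an inhibitor of cyclin-dependent kinases that restrains growth, at 98.9 and 93.8.

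**Figure D1:**
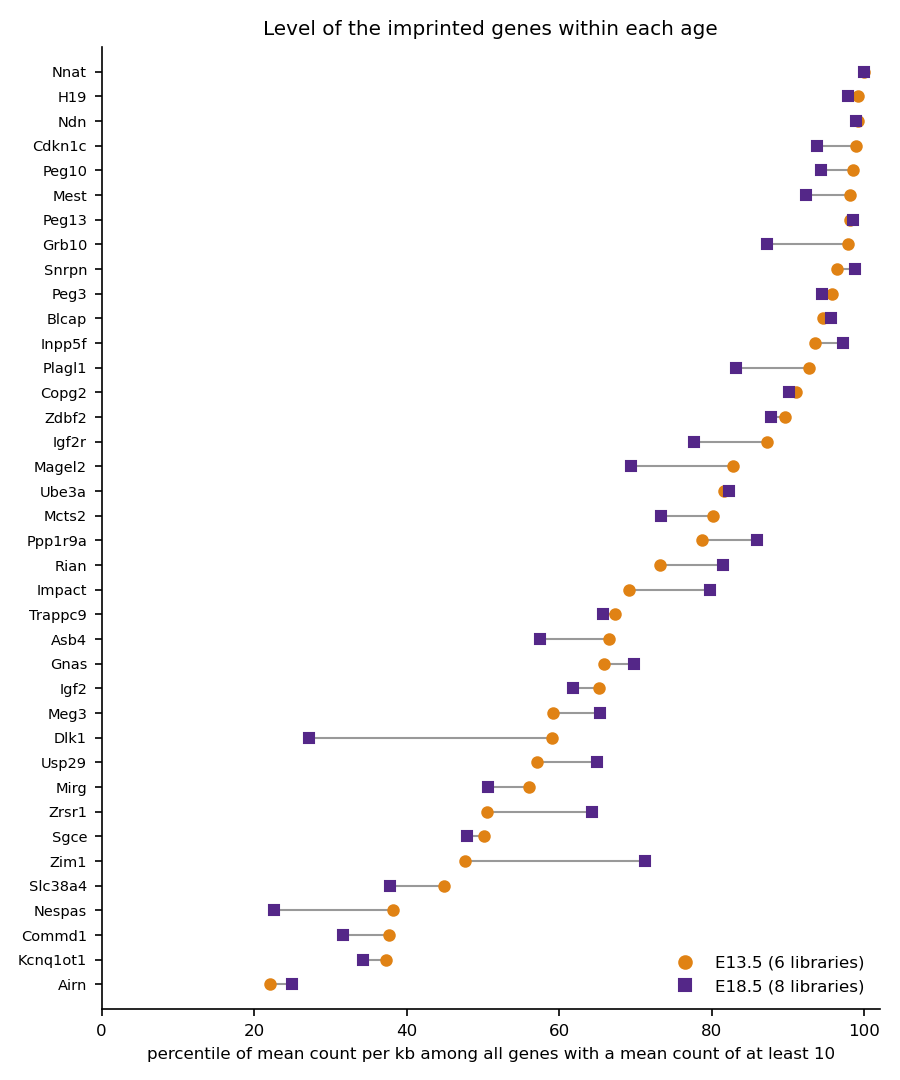
Percentile of the mean normalized count per kb of exon of each imprinted gene (rows) among all genes with a mean count of at least 10, at E13.5 (orange circles, 6 libraries) and at E18.5 (violet squares, 8 libraries). Nnat lies at the top at both ages, and Dlk1 has the widest gap, from 59.1 to 27.2.

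At E13.5, 4 of the 38 genes differed between the genotypes. Nnat (ENSMUSG00000067786.16, chromosome 2 from 157560078 to 157562522 of GRCm38) fell by 0.36 on the log2 scale (standard error 0.07, adjusted p = 1.30e-05, edge of the 95% interval nearest to 0 at -0.23), so that its level decreased by 21.9%. Asb4 (ENSMUSG00000042607.15, chromosome 6 from 5383386 to 5433022), an ankyrin repeat protein of ubiquitin ligase complexes, fell by 0.41 (standard error 0.08, adjusted p = 0.000161). Mest (ENSMUSG00000051855.15, chromosome 6 from 30723547 to 30748465) fell by 0.25 (standard error 0.07, adjusted p = 0.0234). Cdkn1c (ENSMUSG00000037664.13, chromosome 7 from 143458339 to 143461050) rose by 0.26 (standard error 0.06, adjusted p = 0.00256), to a level 20.1% higher. The adjusted p is that of the two-sided Wald test of DESeq2 with Benjamini-Hochberg adjustment over the 16436 genes tested. The 4 calls are 10.5% of the imprinted genes tested, beside 3.56% of all genes tested. The called genes belong to 4 domains, 2 are paternally and 2 maternally expressed, and Cdkn1c was the only one called higher. A t distribution with 4 degrees of freedom, the number of fetuses less 2, was also used in place of the normal distribution. None of the 4 was then called (adjusted p = 0.962 for each), nor was any of the 16436 genes tested. With so few degrees of freedom even Dlx1 (-1.70, standard error 0.09) was not called, so that this outcome is not particular to the 4 genes. In that setting 6 of the 38 genes had an unadjusted p under 0.05, beside 4.86% of all genes. Mest also lost its call when the statistic was scaled by its central spread over all genes (adjusted p = 0.118).

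The direction of the other genes at E13.5 was divided. Among the 38 genes 21 had a negative and 17 a positive log2 fold change, and their median was -0.03, beside -0.01 for all genes with a mean count of at least 10. An unadjusted p under 0.05 was found for 12 genes (31.6%), beside 12.0% of all genes tested. Lower with that p were 8 genes (21.1%), beside 6.96% of all genes. As highly expressed genes have small standard errors, the count was also read among genes with a mean count of at least 1000, where it was 7 of 28 imprinted genes (25%) and 11.1% of all genes. Besides the 3 called genes, the 8 lower genes comprised Zdbf2 (-0.25, standard error 0.09, adjusted p = 0.0861), a zinc finger gene, and Plagl1 (-0.15, standard error 0.05, adjusted p = 0.107), a zinc finger transcription factor that is known to regulate other imprinted genes. Peg10, a gag-like gene needed in the placenta, had a value of -0.20 (standard error 0.08), Usp29, a ubiquitin peptidase, of -0.16 (standard error 0.08), and Ndn, the growth suppressor necdin of postmitotic neurons, of -0.13 (standard error 0.06), with adjusted p from 0.234 to 0.385. Slc38a4, an amino acid transporter, had 0.49 (standard error 0.21), Mirg 0.21 (standard error 0.09) and Meg3 0.18 (standard error 0.08), also without passing the adjustment.

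At E18.5, 2 genes were called, both lower. H19 (ENSMUSG00000000031.16, chromosome 7 from 142575529 to 142578143), a long noncoding RNA that is transcribed from the maternal allele beside Igf2, fell by 0.27 (standard error 0.05, adjusted p = 1.81e-06), so that its level decreased by 17.2%. Mest fell by 0.27 (standard error 0.07, adjusted p = 0.00843), which means that its level decreased by 16.9%. The 2 calls are 5.26% of the 38 genes, beside 1.37% of the 17607 genes tested at this age. Mest was thus called lower at both ages, with log2 fold changes of -0.25 and -0.27. Under a t distribution with 6 degrees of freedom neither gene was called, with adjusted p of 0.517 for H19 and 0.891 for Mest, and of the 17607 genes tested 1 was. In that setting 6 of the 38 genes had an unadjusted p under 0.05, beside 4.06% of all genes.

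Most imprinted genes had small negative changes at E18.5. Of the 38 genes 31 had a negative log2 fold change (81.6%), beside 49.3% of all genes with a mean count of at least 10, and their median was -0.07 beside 0.00 for all genes. An unadjusted p under 0.05 was found for 12 genes (31.6%), beside 8.04% of all genes tested. All 12 were lower, and the share of all genes that were lower with such a p was 3.61%. Among genes with a mean count of at least 1000 the count was 11 of 26 imprinted genes (42.3%), beside 7.13% of all genes. Besides the 2 called genes, the 12 lower genes comprised Igf2 (-0.22, standard error 0.09), the fetal growth factor, Copg2 (-0.20, standard error 0.07), a subunit of the vesicle coat, and Peg10 (-0.17, standard error 0.07). Igf2r, the receptor that clears IGF2 to lysosomes, stood at -0.14 (standard error 0.05), and Peg3, a zinc finger protein, had -0.13 (standard error 0.06). Nnat, Zdbf2 and Cdkn1c each had -0.12, Zim1 -0.11 and Grb10 -0.08, with standard errors from 0.04 to 0.06. None of these 10 passed the adjustment over all genes, with adjusted p from 0.153 for Copg2 to 0.616 for Zim1. The genes tested are not independent of one another, and the shares are given as descriptions.

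**Figure D2:**
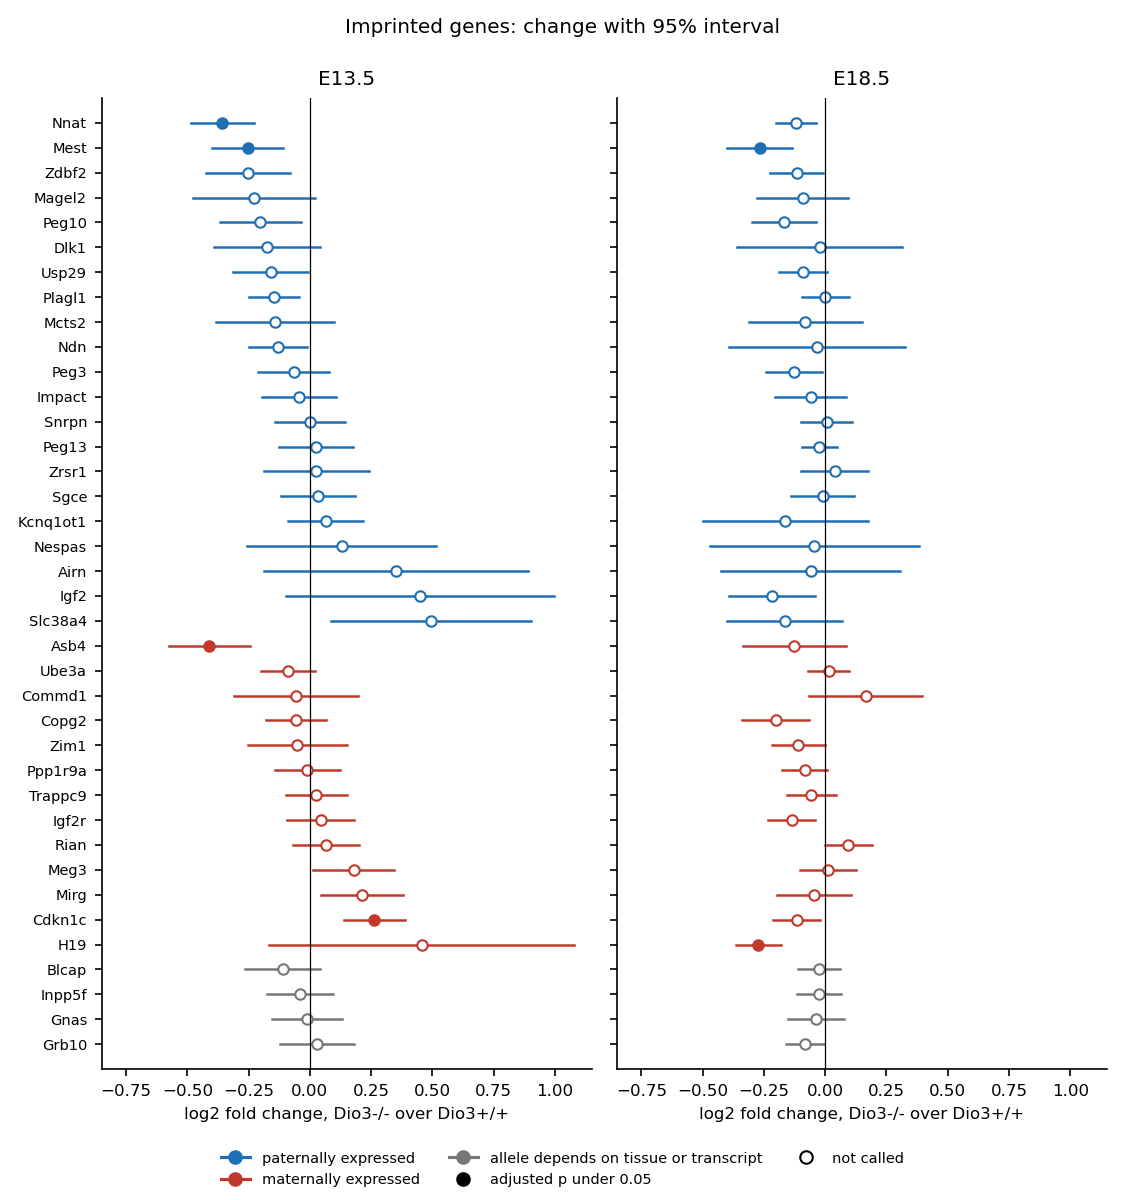
Log2 fold change of Dio3-/- over Dio3+/+ (points) with its 95% interval (lines) for the 38 imprinted genes tested, at E13.5 (left, 4 Dio3+/+ and 2 Dio3-/- fetuses) and E18.5 (right, 3 and 5), coloured by parental class and ordered by the E13.5 value. Filled points have an adjusted p under 0.05, which are 4 genes at E13.5 and 2 at E18.5, and 31 of the 38 points at E18.5 lie below 0.

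The precision of the genes differed between the ages. With 2 Dio3-/- fetuses at E13.5 and 5 at E18.5, the median standard error of the 38 genes was 0.08 at E13.5 and 0.06 at E18.5. The 95% interval lay wholly within 0.25 of 0 on the log2 scale for 18 genes at E13.5 and for 23 at E18.5, so that larger changes fall outside the interval for these genes. Snrpn, a splicing protein, was one of them at both ages, with values of 0.00 (standard error 0.07) and 0.01 (standard error 0.05). Ube3a, the ubiquitin ligase of Angelman syndrome that is maternally expressed in neurons, had -0.09 (standard error 0.06) and 0.01 (standard error 0.04), and Peg13, a brain noncoding RNA, had 0.03 (standard error 0.08) and -0.02 (standard error 0.04). For Airn, Nespas and Dlk1 the standard errors reached from 0.11 to 0.28, and a change of 0.25 was inside each of their intervals at E18.5.

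The standard errors of imprinted genes were often large for their level. Each gene was set beside all tested genes with a mean count within 1.5 times its own. At E13.5, 8 of the 38 genes (21.1%) lay above the 90th percentile of standard errors of such genes, and at E18.5 14 did (36.8%), where 10% of all genes lie by construction. H19 and Igf2 stood out at E13.5. The standard error of H19 was 0.32 (percentile 99.4), beside a median of 0.06 among genes of like level, and that of Igf2 was 0.28 (percentile 99.1), beside 0.08. Their log2 fold changes of 0.46 and 0.45 were therefore not called, with adjusted p of 0.667 and 0.587, although they were among the highest of all imprinted genes. By qPCR in a larger set of fetuses that included females, the study reported Igf2, H19 and Meg3 as up-regulated at E13.5. At E18.5 H19 had an ordinary standard error (percentile 62.8), while that of Igf2 was still high for its level (0.09, percentile 98.8, median 0.06). Ndn (0.18, percentile 99.7, median 0.04) and Kcnq1ot1 (0.17, percentile 99.8, median 0.05) also stood out at that age. Magel2, which lies beside Ndn, had percentiles of 98.5 at E13.5 and 99.4 at E18.5. Which fetuses carried the spread is not visible without values per library.

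**Figure D3:**
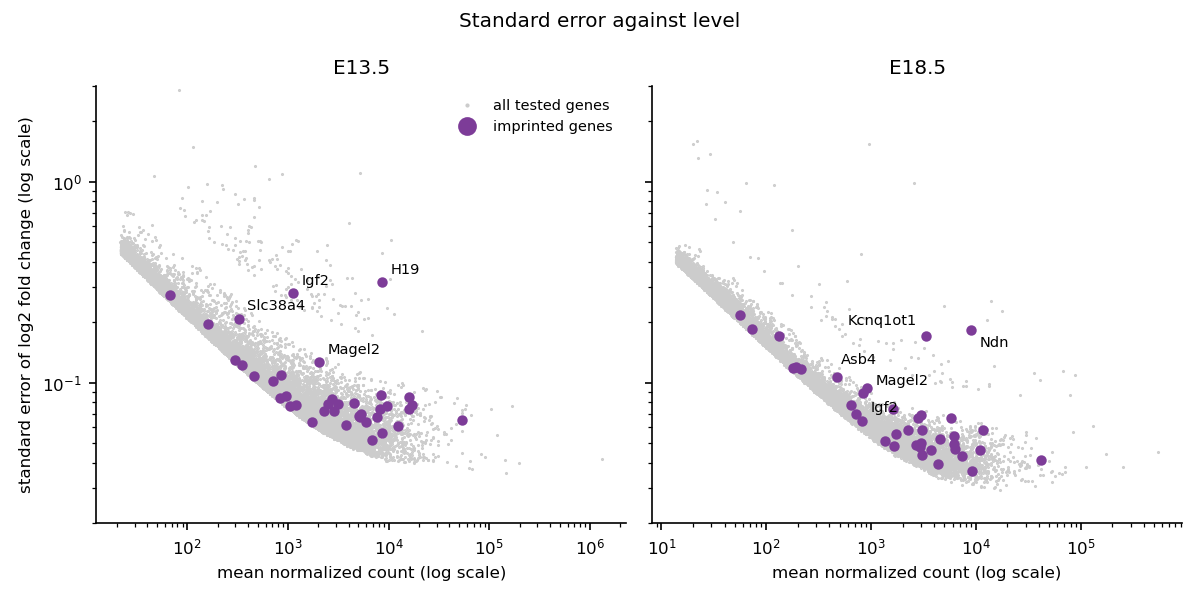
Standard error of the log2 fold change (vertical, log scale) against the mean normalized count (horizontal, log scale) for all tested genes (grey) and the 38 imprinted genes (violet) at E13.5 and E18.5. H19 (0.32) and Igf2 (0.28) lie far above genes of like level at E13.5, as do Ndn (0.18) and Kcnq1ot1 (0.17) at E18.5.

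The parental classes were compared by their counts and medians, without a test. At E13.5 the median log2 fold change of the 21 paternally expressed genes was -0.07, with 12 lower and 9 higher, and that of the 13 maternally expressed genes was 0.03, with 6 lower and 7 higher. Of the paternally expressed genes 7 were lower with an unadjusted p under 0.05 and 1, Slc38a4, was higher. Of the maternally expressed genes 1, Asb4, was lower and 3, Cdkn1c, Meg3 and Mirg, were higher. At E18.5 both medians were -0.08, and 18 of the 21 paternally and 9 of the 13 maternally expressed genes were lower. The 4 genes of varying allele had medians of -0.03 at both ages. Single values at E13.5 ran from -0.36 to 0.49 among the paternally expressed and from -0.41 to 0.46 among the maternally expressed genes.

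Coding and noncoding transcripts differed more in sign than the parental classes did at E13.5. All 8 noncoding RNAs (H19, Meg3, Rian, Mirg, Kcnq1ot1, Airn, Nespas and Peg13) had positive log2 fold changes, from 0.03 to 0.46 with a median of 0.15, and 2 of them, Meg3 and Mirg, had an unadjusted p under 0.05. Meg3, Rian and Mirg belong to 1 domain, and the share over all noncoding genes was not computed. Of the 30 coding genes 21 were lower (70%), with a median of -0.06. Beside this, 51.5% of all genes with a mean count of at least 10 were lower, and 65.8% of those with at least 1000. At E18.5, 6 of the 8 noncoding RNAs were lower, with a median of -0.05, and 25 of the 30 coding genes were lower, with a median of -0.08. No noncoding RNA was called at E13.5, and H19 was the only one called at E18.5.

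Within domains, genes of opposite class mostly had the same sign, which was not compared with pairs of genes from different domains. At E18.5 a shared sign is common for any pair, as 18 of 21 paternally and 9 of 13 maternally expressed genes were lower. In 10 domains both a paternally and a maternally expressed gene were tested. Their classes had opposite signs in 2 of the 10 domains at each age, both were lower in 4 at E13.5 and in 7 at E18.5, and the paternal median was below the maternal one in 7 at E13.5 and in 5 at E18.5. Igf2 and H19, which share enhancers on chromosome 7 and are expressed from opposite alleles, had 0.45 and 0.46 at E13.5 and -0.22 and -0.27 at E18.5. Their intervals at E13.5 both included 0. Cdkn1c and Kcnq1ot1, the noncoding RNA that silences Cdkn1c on the paternal allele, had 0.26 and 0.06 at E13.5 and -0.12 and -0.16 at E18.5. Igf2r and its antisense silencer Airn had 0.04 and 0.35 at E13.5, and -0.14 and -0.06 at E18.5. All 3 genes of the Peg3 domain were below 0 at both ages (Peg3 -0.07 and -0.13, Usp29 -0.16 and -0.09, Zim1 -0.05 and -0.11). In the Peg10 domain Asb4, Peg10 and Ppp1r9a, a neuronal scaffold of phosphatase 1, were below 0 at both ages, and Sgce, the gene of myoclonus dystonia, had 0.03 and -0.01. In the Snrpn domain, the region of Prader-Willi syndrome, Ndn and Magel2 were below 0 at both ages and Snrpn lay at 0. In the Zrsr1 domain Zrsr1, a splicing factor, had 0.03 and 0.04, and Commd1, within which it lies, had -0.06 and 0.16, the highest of the 38 values at E18.5. Trappc9, within which Peg13 lies, had 0.03 and -0.06.

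Of the genes that are alone in their domain, or share it with no gene of the other class, none but Nnat was called. Impact, an inhibitor of the stress kinase GCN2, had -0.04 (standard error 0.08) at E13.5 and -0.06 (standard error 0.07) at E18.5. Mcts2, a retrogene within another gene, had -0.14 and -0.08, each with a standard error of 0.12. Inpp5f, a phosphoinositide phosphatase, had -0.04 and -0.03, and Gnas, the stimulatory G protein subunit, had -0.01 and -0.04, with standard errors of 0.05 to 0.07. Blcap, which surrounds Nnat, had -0.11 (standard error 0.08) at E13.5 where Nnat fell by 0.36, and -0.03 (standard error 0.04) at E18.5. Grb10 had 0.03 (standard error 0.08) at E13.5.

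Reads were counted without regard to strand, and 7 of the 40 genes share more than 20% of their exon bases with another annotated gene. Mest shares 23.1% with Copg2, which is transcribed toward it. By the counting mode used, reads that lie on exons of both genes are counted for neither, so that the shared part adds nothing to either count, and levels per kb of exon are lowered for genes that share many bases. Copg2 had -0.06 (standard error 0.06, mean count 3735.1) at E13.5 and -0.20 (standard error 0.07, mean count 3011.2) at E18.5, beside -0.25 and -0.27 for Mest with mean counts of 8119.1 and 2814.4. Cdkn1c shares 30.7% with Gm44732 on the other strand. Igf2 shares 64.5%, with Igf2os on the other strand among others, and the mean count of Igf2os was 53.3 at E13.5 where that of Igf2 was 1135.3. Of the called genes, Nnat and Asb4 share less than 5% of their exon bases, and H19 shares 9.15%.

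The genes of the Dlk1-Dio3 domain on chromosome 12 lie from 822 to 540.5 kb before Dio3. Dlk1, which is paternally expressed like Dio3, stood at -0.17 (standard error 0.11) at E13.5 and at -0.02 (standard error 0.17) at E18.5. The maternally expressed noncoding RNAs of the domain, which are hosts of many small RNAs, had positive values at E13.5, with 0.18 for Meg3, 0.07 for Rian and 0.21 for Mirg. At E18.5 their values were 0.01, 0.09 and -0.05, with standard errors of 0.05 to 0.08. None was called at either age. Dio3 had -0.89 at E13.5 beside values from -0.17 to 0.21 of these 4 genes, and 1.10 at E18.5 beside values from -0.05 to 0.09. Of the other genes of the region, B830012L14Rik, between Rian and Mirg, had 0.33 (standard error 0.23) and -0.28 (standard error 0.18). The noncoding gene Dio3os, centred 3.30 kb before Dio3, had the sign of Dio3 at both ages, with -0.84 (standard error 0.56, unadjusted p = 0.135) at E13.5 and 1.93 (standard error 0.56, unadjusted p = 0.000561) at E18.5. Its mean counts of 19.9 and 12.0 were under the filter of the Wald test, so that it was not among the genes tested. With a fixed minimum mean count of 10 in place of that filter its adjusted p was 0.702 at E13.5 and 0.0456 at E18.5. With no filter it was 0.0786 at E18.5. The study reported Dio3os as strongly increased at E18.5 by qPCR in a larger set of fetuses, females included. Within 5 Mb of Dio3, Dio3os left out, 84 other genes were tested at E13.5, of which 3 were called (3.57%, beside 3.56% of all genes), all lower. They were Kif26a (-0.40, standard error 0.06), Bcl11b (-0.29, standard error 0.06), which is also one of the telencephalon markers above, and Gm19554 (-0.85, standard error 0.23), which lost its call when the statistic was scaled by its central spread (adjusted p = 0.0808). At E18.5, none of 89 genes, Dio3os again left out, was called by the Wald test. An unadjusted p under 0.05 was found for 6 of them (6.74%, beside 8.04% of all genes). The median log2 fold change of the genes around Dio3 was -0.02 at E13.5 and 0.00 at E18.5.

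**Figure D4:**
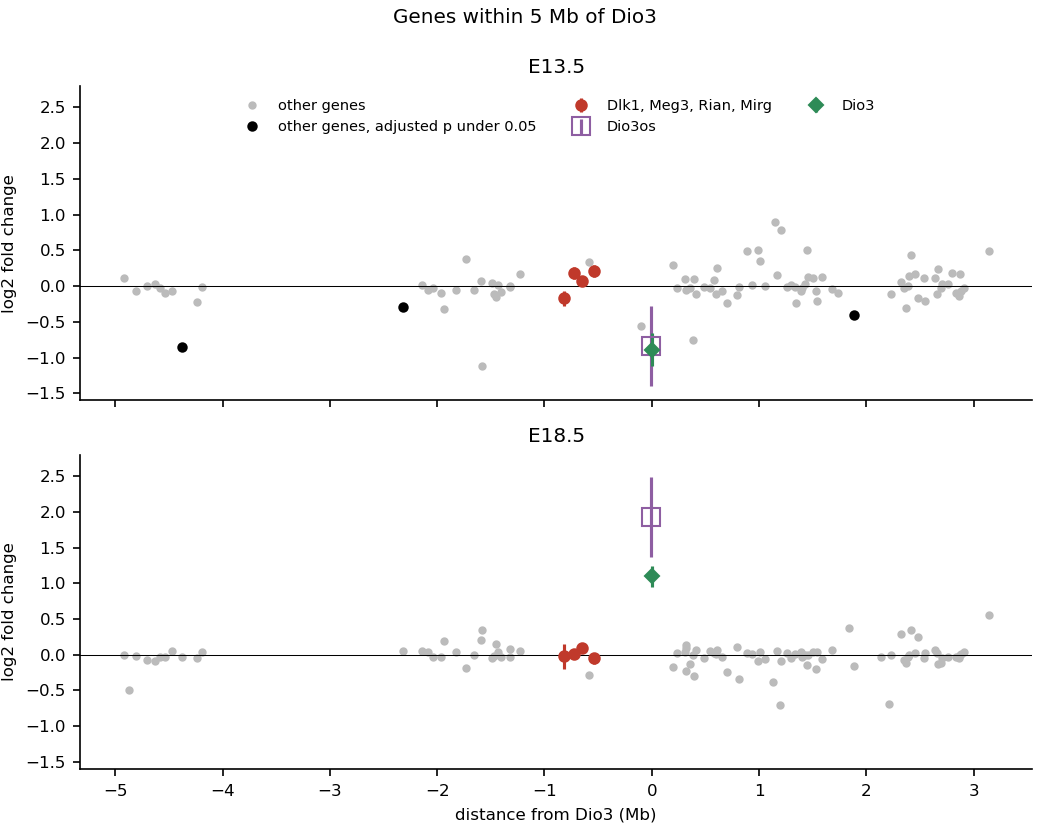
Log2 fold change of genes with a mean count of at least 10 against their distance from Dio3 on chromosome 12, at E13.5 (top) and E18.5 (bottom), with bars of 1 standard error on Dio3 (green diamonds), on Dio3os (open violet squares) and on Dlk1, Meg3, Rian and Mirg (red). Dio3 lies at -0.89 and 1.10, Dio3os at -0.84 and 1.93, and the 4 imprinted neighbours lie between -0.17 and 0.21.

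The change with genotype was then compared between the ages, by the difference of the log2 fold changes over the root of their summed squared standard errors. Of the 38 genes 1 differed, Cdkn1c, beside 1.95% of the 17793 genes with a mean count of at least 10 at both ages. Its log2 fold change was 0.26 at E13.5 and -0.12 at E18.5, a difference of -0.38 (standard error 0.08, adjusted p = 0.000503). The 95% interval of this difference ran from -0.54 to -0.22. Under a t distribution with 10 degrees of freedom Cdkn1c was not called (adjusted p = 0.189), and of the 17793 genes 9 were. In that setting 6 of the 38 genes had an unadjusted p under 0.05, beside 6.84% of all genes. Nnat, lower at both ages, differed by 0.24 (standard error 0.08, adjusted p = 0.0826). Slc38a4 (-0.66, standard error 0.24), H19 (-0.73, standard error 0.32) and Igf2 (-0.67, standard error 0.29) had wide intervals that left out 0, with adjusted p of 0.164, 0.359 and 0.360. The fall of Asb4 at E13.5 was not shown to differ from its value of -0.13 (standard error 0.11) at E18.5 (adjusted p = 0.446), and for Mest the difference was -0.01 (standard error 0.10).

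The signs at both ages were also counted. Of the 38 genes 18 (47.4%) were below 0 at both ages, beside 24.9% of all genes with a mean count of at least 10 at both ages and 33.4% of those with at least 1000. Above 0 at both ages were 4, 13 were above 0 at E13.5 and below at E18.5, and 3 were the reverse. The genes below 0 at both ages were 11 of 21 paternally expressed, 4 of 13 maternally expressed and 3 of 4 with a varying allele. An unadjusted p below 0.05 was reached at both ages by 5 genes. Mest, Nnat, Zdbf2 and Peg10, all paternally expressed, were lower at both ages, and Cdkn1c had opposite signs. Across the 38 genes Pearson's r between the changes of the ages was -0.13, a description over genes that share their libraries within each age.

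**Figure D5:**
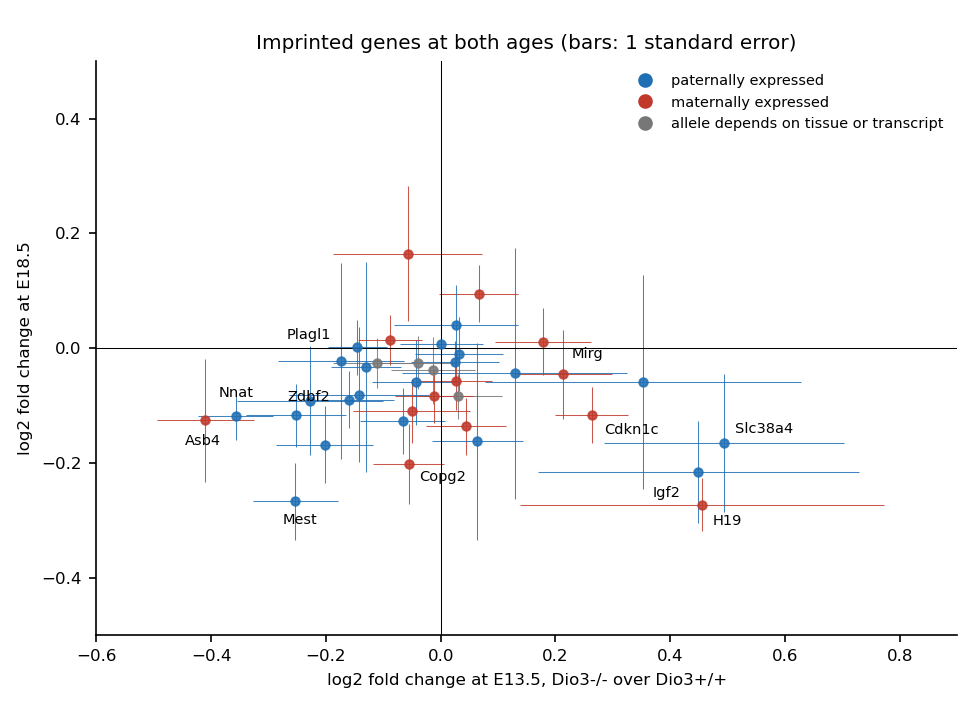
Log2 fold change at E18.5 (vertical) against that at E13.5 (horizontal) for the 38 imprinted genes, with bars of 1 standard error, coloured by parental class. Mest lies at -0.25 and -0.27 in the lower left, Cdkn1c at 0.26 and -0.12 in the lower right, and most genes lie below the horizontal line at 0.

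Other imprinted genes and the genes that keep imprints were read for comparison. Of 32 further imprinted genes, 27 were tested at E13.5 and 1 was called (3.70%, beside 3.56% of all genes). This was Peg12 of the Snrpn domain, which fell by 0.31 (standard error 0.08, adjusted p = 0.00803). It lost its call when the statistic was scaled by its central spread (adjusted p = 0.0568). At E18.5, 29 were tested and none was called by the Wald test, while 3 had an unadjusted p under 0.05 (10.3%, beside 8.04% of all genes). Their median log2 fold change was -0.01 at both ages, with 14 of 28 lower at E13.5 and 16 of 30 at E18.5 among those with a mean count of at least 10. Among 21 tested genes of DNA methylation and of chromatin at imprints, 14 were lower at E13.5 with a median of -0.06. The 2 called (9.52%, beside 3.56% of all genes) were Uhrf1 and Hells. Uhrf1 (-0.42, standard error 0.10) brings the maintenance methyltransferase to replicated DNA, and Hells (-0.39, standard error 0.09) is a chromatin remodeler. Dnmt1, that methyltransferase, had -0.13 (standard error 0.05, adjusted p = 0.209) at E13.5 and -0.12 (standard error 0.04, adjusted p = 0.0826) at E18.5. None of the 21 was called at E18.5 by the Wald test, and their median was -0.02. An unadjusted p under 0.05 was found for 2 of them (9.52%, beside 8.04% of all genes). For the earlier age, the study reported its changed genes as enriched for the cell cycle and for DNA replication. Of the 10 neural progenitor markers tested at E13.5, 7 were lower and 3 higher. Called lower were Mki67 (-0.36, standard error 0.09), Sox2 (-0.34, standard error 0.08) and Pax6 (-0.74, standard error 0.09), and none was called higher. The part of dividing cells in the calls of Uhrf1 and Hells was not tested.

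Markers of cells outside the neural tissue, in which several imprinted genes of the fetus are abundant, were counted beside the members. Igf2 and H19 are known to be abundant in mesodermal tissue of the fetus, the meninges among them. At E13.5 all 15 markers of leptomeninges were higher, with a median log2 fold change of 0.45 and 1 call, 11 of 12 endothelial markers were higher (median 0.06, none called and 1 with an unadjusted p under 0.05 by the Wald test), and 6 of 9 mural cell markers were higher (median 0.18, 2 calls). At E18.5, the age at which H19 fell, the medians of the same lists were 0.13, 0.01 and -0.04. Lower at that age were 4 of 15 leptomeningeal, 6 of 12 endothelial and 5 of 8 mural cell markers. In each of these lists 1 marker was lower with an unadjusted p under 0.05 by the Wald test. These are 6.67%, 8.33% and 12.5% of the markers tested, beside 3.61% of all genes tested. Of the leptomeningeal markers 3 were called higher at that age, the matrix genes Col3a1 (0.17, standard error 0.04), Dcn (0.35, standard error 0.07) and Ogn (0.24, standard error 0.07). Flt1 of endothelium (0.34, standard error 0.07) and Rgs5 of mural cells (0.29, standard error 0.04) were also called higher there. Called at E18.5 were thus 20%, 8.33% and 12.5% of leptomeningeal, endothelial and mural cell markers tested, beside 1.37% of all genes. At E13.5 the shares were 6.67%, 0% and 25%, beside 3.56%. Of the other lists at E13.5, the medians were -0.35 for 10 choroid plexus markers, 0.40 for 9 of skeletal muscle, -0.45 for 11 of erythroid cells, -0.59 for 13 of hypothalamus, -0.15 for 3 of pituitary, 0.04 for 10 of neurons and -0.11 for 10 of neural progenitors. At E18.5 they were 0.03, -0.25, -0.36, 0.02, 0.36, 0.02 and -0.05. Called lower at E13.5 were 4 of 11 erythroid, 2 of 10 hypothalamus and 3 of 10 progenitor markers tested, the last being Mki67, Sox2 and Pax6. At E18.5, 2 of 7 erythroid and 2 of 10 progenitor markers were called lower, and Kl of choroid plexus (0.49, standard error 0.14) higher. No other marker of these other lists was called. The part of all these markers in the changes of the imprinted genes was not tested.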

How the data were processed

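Per the labels and the methods, the authors removed adaptors with cutadapt 3.1, aligned single-end reads to GRCm38 with STAR 2.5.3a, assigned them to GENCODE VM22 genes with HTSeq (union, strand ignored), removed the difference between sequencing batches from the counts by ComBat-seq, and ran DESeq2 1.30.1 on the genotypes of each age. The batch adjustment can change both a fold change and its error, and its effect was not analysed here. The deposited mean count is a signal, namely counts scaled by size factors and averaged over an age's libraries. The deposited fold changes and standard errors are on the log2 scale. The Wald statistic deposited by the authors is a score, the log2 fold change over its standard error, and the deposited p-value is that of this statistic under a normal distribution. These columns hold the comparison of the study itself, and no deposited adjusted p was used. Columns of single samples that were not used numbered 0, and the depth of each library is unknown.

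From these columns the filter on the mean count was computed again (50 cutoffs, kept from 21.7 at E13.5 and 13.8 at E18.5), followed by Benjamini-Hochberg adjustment over the 16436 and 17607 kept genes, with calls at an adjusted p under 0.05. Medians and counts of signs were taken over genes with a mean count of at least 10. Functions were tested on simulated data. Python 3.11.15 with scipy 1.17.1 and statsmodels 0.14.6 was used. Positions, exon overlaps and lengths came from GENCODE release 21 of the same build, in which 41897 of the identifiers were found. The members, their classes and the 15 gene lists were chosen with earlier results of these data known. The genes named are all 40 members, Dio3, and some of the called genes of the other lists. Most markers, called ones among them, were given by counts and medians only. Dnmt1, Dio3os, B830012L14Rik, Xist, the Y-linked genes and the markers of low level were named outside this rule, after their values were seen. Alternatives are listed in the closing section.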

Additional observations from a re-analysis of the deposited data

Results flagged for a closer look

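The change of Cdkn1c with genotype differed between the ages. Its log2 fold change was 0.26 at E13.5 and -0.12 at E18.5, and the difference of -0.38 (standard error 0.08) had an adjusted p of 0.000503. Dio3 itself differed by 1.99 (standard error 0.28, adjusted p = 9.83e-10), from -0.89 to 1.10. Among the other named genes, Uhrf1 differed by 0.42 (standard error 0.12, adjusted p = 0.0283), from -0.42 at E13.5 to 0.00 at E18.5. Bcl11b, a telencephalon marker within 5 Mb of Dio3, differed by 0.34 (standard error 0.09, adjusted p = 0.0105), from -0.29 to 0.05. When the statistic was scaled by its central spread, the differences of Uhrf1 (adjusted p = 0.105) and Bcl11b (adjusted p = 0.0503) were not called. Under a t distribution none of the 4 was called, with adjusted p of 0.189 for Cdkn1c, 0.0513 for Dio3, 0.360 for Uhrf1 and 0.297 for Bcl11b.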

How the results depend on the processing

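The alternatives to the Wald test, the filter, the scaling and the threshold were set with earlier results of these data known, and the removal of genes with shared exons was chosen after seeing the data. With a t distribution, 0 members were called at E13.5, 0 at E18.5 and 0 for the difference between the ages, in place of 4, 2 and 1. Of all genes 0 of 16436, 1 of 17607 and 9 of 17793 were called in that setting, so that the loss is not particular to the members. With an adjusted p under 0.10, Nnat joined Cdkn1c in the difference between the ages, for a count of 2, and Zdbf2 joined the genes called at E13.5, for a count of 5. Without the 7 members that share more than 20% of their exon bases, the calls were 2 at E13.5 (Nnat and Asb4), 1 at E18.5 (H19) and 0 for the difference, as Mest and Cdkn1c were left out. Under the other planned settings the counts were 3 or 4 at E13.5, 2 at E18.5 and 1 for the difference. Across all genes the calls at E13.5 were 296 of 16436 in place of 585 when the statistic was scaled by its central spread, and 186 in place of 347 for the difference. Among the settings tried for them (centring, a minimum mean count of 50, other classes for 4 genes, shared exons), the medians of the parental classes were lowest at -0.13, for paternally expressed genes at E13.5 without the members of shared exons, in place of -0.07. Centring and the removal of the trend were the settings that change the fold changes themselves. The trend was removed from the Wald statistic, and the fold change was then the remaining statistic times its standard error. Among the 228 values of single members under centring or removal of the trend 7 changed sign, all without a call. When fold changes were centred, Plagl1 went to -0.00109 at E18.5 and the difference of Snrpn to -0.00238. When the trend on GC content and length was removed, Dlk1 went to 0.0102, Snrpn to -0.00853 and Kcnq1ot1 to 0.51 at E18.5, and the differences of Kcnq1ot1 and Snrpn went to 0.34 and -0.0157, of which the cause was not tested. No paired analysis was possible because the deposited tables hold no values per library, and for the same reason the planned removal of single replicates was not run.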
